A study of Mus musculus with 8 samples.

Results

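Genes of protein folding in the endoplasmic reticulum (ER) and of the unfolded protein response were followed in RNA-seq libraries of the nucleus accumbens, the ventral striatum of the mouse brain. The 36 genes were chosen by symbol, for ER folding, disulfide formation, ER-associated degradation and the Ire1, Perk and Atf6 branches of the response, and all 36 were found among the 22337 genes of the table. They occupied 37 rows, because Ddit3 has a second, overlapping locus that was listed at 0 to 0.5 FPKM and is not counted further. The animals were male C57BL/6 mice that had received morphine (4 libraries) or saline (4 libraries); the comparison asks which genes of this region differ in level after chronic morphine. The sources used here give no dose, schedule, age or interval before dissection, and name no genetic modification in either group. The labels do not say that replicates were separate animals, so each p-value weighs a difference only against library-to-library spread, part of which may be technical.

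The ER lumen folds secreted and membrane proteins with the help of the Hsp70-type chaperone BiP, the product of Hspa5, lectin chaperones and disulfide isomerases. Misfolded proteins are sent back to the cytosol for degradation. When unfolded proteins accumulate, a trio of membrane sensors respond: Atf6 is cleaved to release a transcription factor that induces chaperone genes, Ire1 (gene Ern1) splices the Xbp1 mRNA so that it encodes an active factor, and Perk (gene Eif2ak3) phosphorylates a translation initiation factor and so favours translation of Atf4, which induces Ddit3, Trib3 and Ppp1r15a.

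Values are FPKM, fragments normalised to transcript length and to the total mapped, so levels can be compared between genes per length. Column sums lay between 480003.6 and 540104.1, and 12287 to 12655 genes per library were at 1 FPKM or more. Sequencing depth is unknown, since these values hold no read totals. Mitochondrially encoded genes took 9.09 to 12.6% of the summed FPKM in saline and 6.09 to 7.94% in morphine. Changes are differences of mean log2(FPKM + 1), morphine minus saline, a scale that understates the change of low genes. Adjusted p-values come from limma (Benjamini-Hochberg, threshold 0.05). The 12536 genes tested reached 1 FPKM in 4 or more libraries.

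The chaperone gene Hspa5, its partners Sdf2l1, Manf and Pdia6, and the transcription factor gene Xbp1 rose in the morphine libraries, by 60 to 101% of their saline means. No gene of the Perk branch passed the test. Of 34 tested genes of the 36, 5 were higher, none was lower and 29 did not pass; among all genes tested, 1.04% were called higher and 1.48% lower. At an unadjusted p under 0.05, 13 of the 34 were higher and 0 lower. Of all 12536 genes tested, 1256 were higher and 1270 lower at this cutoff. The median change of the 34 was 0.15, and that of all genes tested was 0.01. For 11 of the 34 the lowest morphine library was above the highest saline library, an arrangement seen in 6.56% of all genes tested, and for none was the highest morphine library below the lowest saline library, seen in 6.1%. Trib3 and Derl3, which were too low to be tested, did have every morphine value below every saline value. The summed FPKM of the 36 genes was 1236.5 ± 60.8 in saline (SD, n = 4) and 1541.3 ± 68.2 in morphine (SD, n = 4), and the 5 called genes made up 62.5% of the difference, Hspa5 alone 28.7%.

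The calls were sensitive to single libraries while the sizes of the changes were less so. Scaling without mitochondrial genes kept the 5 calls but moved the share of higher genes among all calls from 41.1 to 21.4%. With that scaling, 8 of the 34 were higher and 0 lower at an unadjusted limma p under 0.05. Their median change was then 0.097, against −0.043 for all genes tested, and 9 had groups that did not overlap. In limma fits that left out saline replicate 2, or morphine replicate 3, or the fourth morphine library, 0 of the 34 genes and 0 of all genes were called (at an unadjusted p under 0.05, 10, 10 and 9 of the 34, and 1955, 1936 and 2120 of all genes). Over those fits the adjusted p of the 5 genes lay between 0.0609 and 0.104 and their changes between 0.56 and 0.97.

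**Figure D1:**
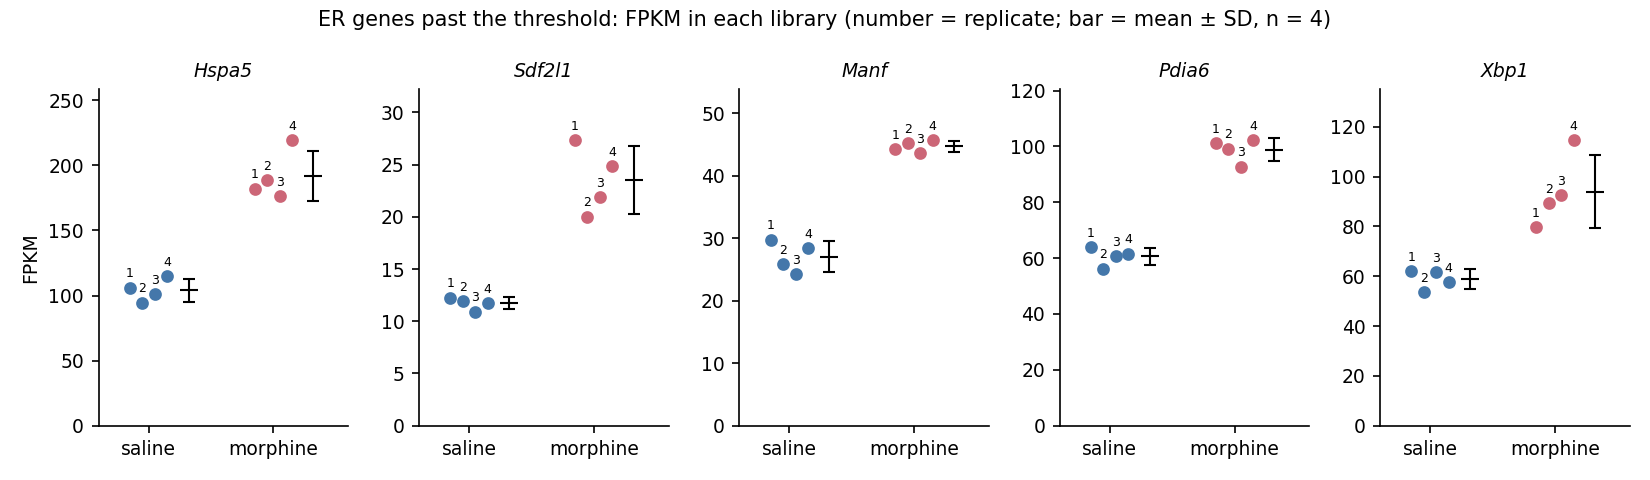
FPKM of the 5 called genes (vertical axes, each starting at 0) in the saline (blue) and morphine (red) libraries, numbered by replicate, with the mean ± SD of 4 libraries beside each group. For each gene the lowest morphine value lies above the highest saline value; for Hspa5 these are 176 and 115 FPKM.

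Among the folding chaperones, 3 of 10 tested genes rose, none fell, and the median change was 0.28. Hspa5 (ENSMUSG00000026864, chromosome 2, 34771970 to 34777547, plus strand, GRCm38) had 106, 94.4, 101 and 115 FPKM in saline replicates 1 to 4 and 182, 189, 176 and 219 in morphine replicates 1 to 4. The groups did not overlap, and the level was 1.84 times as high with morphine. Its change was 0.87 ± 0.11 (log2, SE; limma adjusted p = 0.0159). In saline the mean level of Hspa5 (104.1 FPKM) was below those of Calr (113) and Canx (111.3), and in morphine it was the highest of the 36 genes (191.6). Its share of their summed FPKM was 8.12 to 9.03% in saline and 11.9 to 13.4% in morphine.

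Sdf2l1, an ER-resident protein that works with BiP and its DnaJ partners, had the largest change among the tested genes of the list. Its values were 12.3, 11.9, 10.9 and 11.7 FPKM in saline and 27.3, 20.0, 21.9 and 24.9 in morphine (ENSMUSG00000022769, chromosome 16, 17130138 to 17132383, minus strand). The change was 0.94 ± 0.12 (log2, SE; adjusted p = 0.0159), and the 4 saline libraries lay closer together than the 4 morphine libraries. Manf, a secreted ER stress-induced factor that binds BiP, had 29.8, 25.8, 24.3 and 28.4 FPKM in saline and 44.2, 45.15, 43.6 and 45.65 in morphine (ENSMUSG00000032575, chromosome 9, 106838312 to 106891979, minus strand). It rose by 0.71 ± 0.10 (log2, SE; adjusted p = 0.0174). Here the morphine libraries were the tighter group. Exons of Manf overlap exons of Dcaf1 on the opposite strand, which was listed at 3.92 to 11.4 FPKM. They also overlap exons of Rbm15b on the same strand, by at most 14 bases for any pair of exons. No strand-aware counting is stated, so a part of the reads may be shared. No exon of Hspa5, Sdf2l1 or Xbp1 overlaps an exon of another gene in GENCODE M21. Exons of the called gene Pdia6 overlap exons of Atp6v1c2 on the opposite strand, by at most 50 bases for any pair of exons. Atp6v1c2 was listed at 0 to 1.81 FPKM.

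The other chaperones of this group had smaller differences. Dnajb11, a DnaJ partner of BiP, had 25.1 to 29.8 FPKM in saline and 32.9 to 39.05 in morphine, without overlap (change 0.33 ± 0.10 SE; adjusted p = 0.111). Creld2, an ER stress-induced isomerase, had 14.9 to 19.75 and 18.1 to 26.1 FPKM (adjusted p = 0.192). Hsp90b1, the ER form of Hsp90, had 84.0 to 106 and 95.2 to 116 FPKM (change 0.24 ± 0.11 SE; adjusted p = 0.248), so that its overlapping ranges stood beside the separated ones of Hspa5. Hyou1, the large Hsp70-related protein and nucleotide exchange factor of BiP, had 5.70 to 7.49 and 6.69 to 8.32 FPKM (adjusted p = 0.541). Sil1, the other exchange factor of BiP, had 21 to 28.7 FPKM in saline and 19.8 to 23.3 in morphine (change −0.18 ± 0.12 SE; adjusted p = 0.427). Of the DnaJ co-chaperones Dnajc3 and Dnajb9, the first had 10.3 to 13.0 and 11.8 to 15.0 FPKM and the second 17.7 to 23.8 and 17.81 to 24.15.

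An exact ER stress response element (ERSE), the bipartite site through which Atf6 acts together with the factor NF-Y, was searched in the 250 bases before each RefSeq gene start (GRCm38.p6). The element was taken as CCAAT and CCACG separated by any 9 bases, on either strand. Of the 36 genes 30 had an entry in the table, and 10 of these held a match, against 37 of all 32851 windows (0.113%). The windows of Manf, Hyou1, Atf6, Derl1, Sec61a1 and Sil1 were not analysed here. The list was chosen in part for the Atf6 branch, which acts through this element, so its share of matches is not independent of that choice. The matches are shown 5′ to 3′ on their own strand, and capitals mark the fixed bases.
Hspa5: CCAATcggaggcctCCACG
Pdia6: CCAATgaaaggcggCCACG
Hsp90b1: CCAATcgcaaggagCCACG
Hsp90b1: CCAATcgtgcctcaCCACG
Calr: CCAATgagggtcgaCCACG
Canx: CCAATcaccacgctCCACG
Creld2: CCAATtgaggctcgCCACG
Dnajc3: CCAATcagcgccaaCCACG
Syvn1: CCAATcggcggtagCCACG
Ero1lb: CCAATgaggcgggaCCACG
Derl3: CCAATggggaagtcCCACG

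Hsp90b1 held a pair of matches, 212 to 194 and 107 to 89 bases before its start. The match of Hspa5 lay 65 to 47 bases and that of Pdia6 98 to 80 bases before the start. The whole windows of these called genes are printed to show the surroundings of the element, with the same capitals; the GENCODE gene models begin inside both windows.
Hspa5, chr2:34771840-34772089, plus strand: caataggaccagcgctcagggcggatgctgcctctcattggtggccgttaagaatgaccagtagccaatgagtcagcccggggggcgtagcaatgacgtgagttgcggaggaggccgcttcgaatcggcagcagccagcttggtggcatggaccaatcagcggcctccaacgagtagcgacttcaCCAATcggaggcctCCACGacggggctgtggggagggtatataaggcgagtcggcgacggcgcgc
Pdia6, chr12:17266339-17266588, plus strand: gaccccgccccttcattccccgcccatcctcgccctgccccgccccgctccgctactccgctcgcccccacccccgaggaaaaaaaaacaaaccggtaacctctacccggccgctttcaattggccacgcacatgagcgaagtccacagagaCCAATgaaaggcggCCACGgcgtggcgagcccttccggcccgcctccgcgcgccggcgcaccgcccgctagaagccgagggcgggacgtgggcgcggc

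By branch, a match stood in 4 of 7 windows of Atf6 branch genes, 1 of 7 of the Ire1 branch, 0 of 5 of the Perk branch and 5 of 11 of the genes assigned to no branch. Among tested genes of the list, the 9 with a match had changes from 0.07 to 0.87 with a median of 0.24 (2 called higher), and the 19 without one had changes from −0.21 to 0.94 with a median of 0.14 (2 called higher). The called genes Sdf2l1 and Xbp1 had no exact match in this window, so a match did not separate called from other genes. A match was also found before 25 genes outside the list, of which 7 were tested; limma called 0 of them in either direction (at an unadjusted p under 0.05, 1 higher and 2 lower), and their median change was 0.06. The related element ERSE-II, ATTGG and CCACG separated by 1 base, was found in 0.0304% of windows and in 1 of the 30, that of the degradation gene Herpud1. The UPRE (TGACGTGG), bound by Xbp1, was found in 0.563% of windows and in none of the 30, and the CARE (TGATGNAA), bound by Atf4, in 3.45% and in 1, again that of Herpud1. These counts describe letters in a window and not binding.

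Of the 6 disulfide-forming genes 1 rose, and the median change was 0.36. Pdia6, a disulfide isomerase that associates with BiP (ENSMUSG00000020571, chromosome 12, 17266545 to 17284770, plus strand), had 63.9, 56.3, 60.7 and 61.6 FPKM in saline and 101, 99.1, 92.8 and 102 in morphine. It rose by 0.70 ± 0.09 (log2, SE; adjusted p = 0.0159). Pdia4, another isomerase, had 26.45, 23.0, 25.9 and 26.6 FPKM in saline and 33.7, 36.0, 31.6 and 41.3 in morphine. Its groups did not overlap, but with a change of 0.46 ± 0.11 it missed the threshold (adjusted p = 0.0571). Ero1l, the oxidase that recharges disulfide isomerases, likewise had separate groups, at 7.57 to 9.71 and 10.6 to 14.0 FPKM (change 0.49 ± 0.13 SE; adjusted p = 0.0717).

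The abundant isomerases differed less. Pdia3, the partner of the lectin chaperones, had 78.0 to 103 FPKM in saline and 94.65 to 116 in morphine (adjusted p = 0.236). P4hb, the founding disulfide isomerase, had 54.0 to 64.8 and 52.6 to 70.2 FPKM, with a change of 0.04 and a 95% confidence interval from −0.21 to 0.29. Ero1lb, the second oxidase, had 3.49 to 4.22 and 3.23 to 5.22 FPKM (adjusted p = 0.549). The lectin chaperones, which hold glycoproteins until they are folded, did not pass: Calr had 104 to 121 FPKM in saline and 127 to 135 in morphine without overlap (adjusted p = 0.203), and the membrane-bound Canx had 100.5 to 118 and 110 to 120 (adjusted p = 0.739). The translocon genes Sec61a1 and Sec61b, whose products form the channel into the ER, had adjusted p-values of 0.479 and 0.605 and changes of −0.13 and 0.21.

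None of the 7 tested genes of ER-associated degradation passed, and their median change was 0.13 (1 of them had an unadjusted p under 0.05). Syvn1, the ubiquitin ligase of this pathway, had 20.6 to 23.45 FPKM in saline and 23.6 to 27.97 in morphine without overlap (limma adjusted p = 0.185). Exons of Syvn1 overlap exons of Mrpl49 on the opposite strand, by at most 91 bases for any pair of exons. Mrpl49 was listed at 29.75 to 35.25 FPKM. Herpud1, an ER stress-induced scaffold of the ligase, also had separate groups, 33.6 to 39.8 and 40.4 to 43.9 FPKM, with a change of only 0.14 ± 0.10 SE (adjusted p = 0.427). Sel1l, the partner of Syvn1, had 24.4 to 30.1 and 28.2 to 33.2 FPKM (adjusted p = 0.469), and Selenos, which recruits the extraction machinery, had 38.0 to 52.6 and 38.5 to 48.6 (adjusted p = 0.907). Derl1 and Derl2, channel components, had changes of 0.05 and 0.13. Edem1, which marks misfolded glycoproteins, was the lowest tested degradation gene, at 1.03 to 2.19 and 0.81 to 1.48 FPKM (change −0.21 ± 0.19 SE). Derl3 did not reach the minimum level: it was listed at 0.75, 0.74, 2.79 and 1.11 FPKM in saline and at 0.67, 0.45, 0.44 and 0.69 in morphine. All its morphine values lay below its saline values, and its highest value by far was that of saline replicate 3. Tested without the minimum, its limma adjusted p was 0.33.

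**Figure D2:**
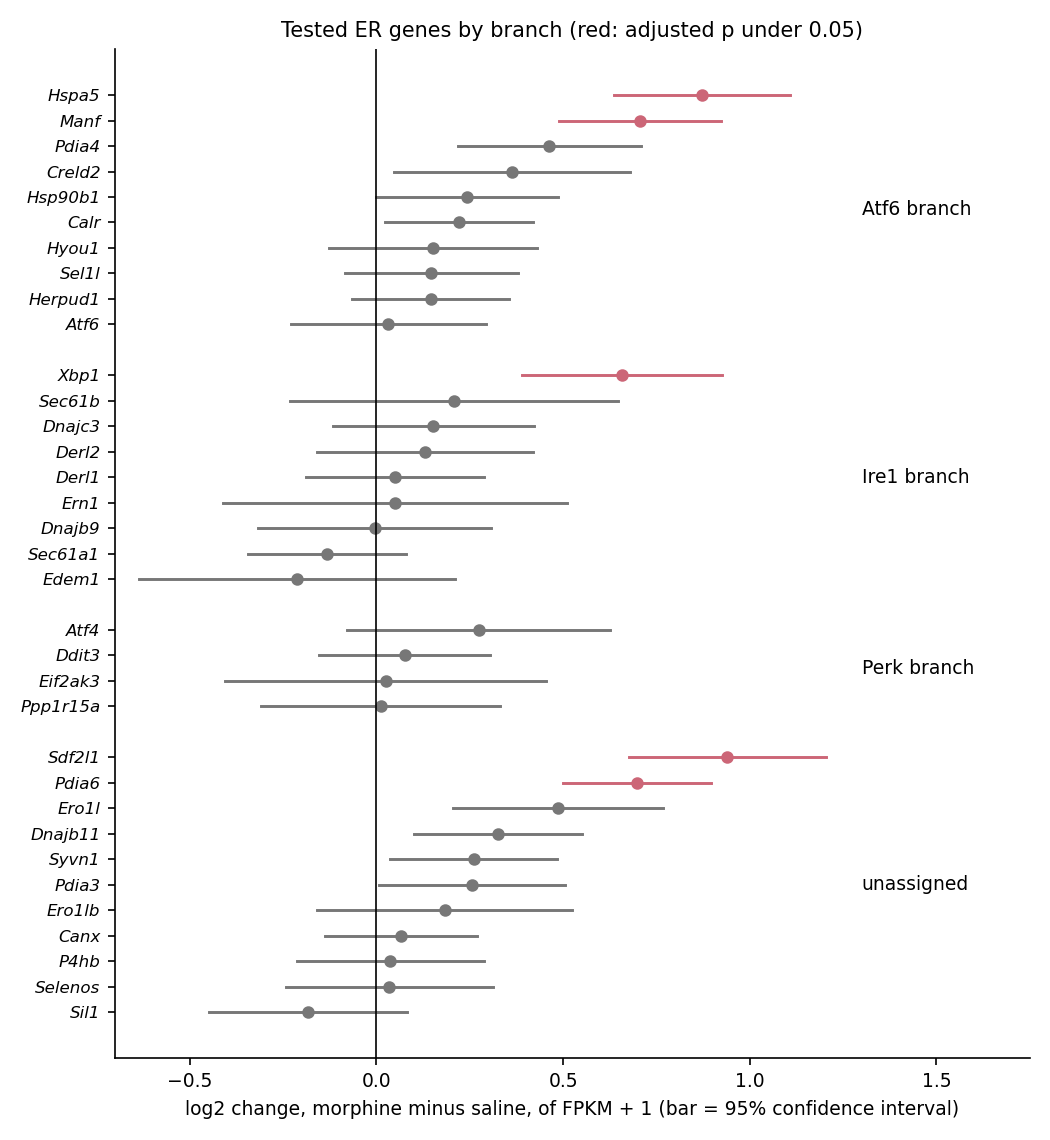
Change of each of the 34 tested genes (points; log2 of FPKM + 1, morphine minus saline) with its 95% confidence interval, grouped by branch and ordered by size. Red marks the 5 genes with an adjusted p under 0.05; the 4 Perk branch intervals all include 0.

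The branches were compared with each gene assigned, from general knowledge, to the factor on which it mainly depends; several of these genes answer to more than one factor, and 12 genes were assigned to none. In the Atf6 branch 2 of 10 genes rose (Hspa5 and Manf), all 10 changes were positive as scaled by the authors (Atf6 itself was at −0.025 without mitochondrial genes), and the median was 0.23. In the Ire1 branch 1 of 9 rose (Xbp1), 6 changes were positive and 3 negative (Derl1 turned negative without mitochondrial genes), and the median was 0.05. In the Perk branch none of 4 tested genes passed (0 at an unadjusted p under 0.05), and the median was also 0.05. For all genes tested the median was 0.01. The Ire1 median rested on the scaling and on single libraries. With quantile scaling the Atf6 and Ire1 medians were 0.17 and 0.14, and without saline replicate 2 they were 0.21 and 0.13. Without morphine replicate 4 or saline replicate 4 the Ire1 median was 0.13 or 0.11, and with the striatal or endothelial covariate it was −0.045 or −0.078. The Perk median was 0.13 without morphine replicate 1 and −0.003 without mitochondrial genes. The Atf6 median lay between 0.17 and 0.28 over all 17 other settings. The mean log2 level of the Atf6 branch genes was 4.92 to 5.09 in the saline and 5.27 to 5.42 in the morphine libraries. For the Ire1 branch the ranges were 3.88 to 4.14 and 4.03 to 4.13, and for the Perk branch 3.83 to 3.96 and 3.88 to 4.12. For the 11 tested genes assigned to no branch the ranges were 4.85 to 4.99 and 5.11 to 5.24. Their median change was 0.26, and 2 of them were called higher. Thus, as scaled by the authors, the libraries of the 2 treatments were apart in the Atf6 branch and in the unassigned genes. They overlapped in the Ire1 and Perk branches. These library means were not recomputed under the other settings. The branch means themselves were not tested against each other.

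**Figure D3:**
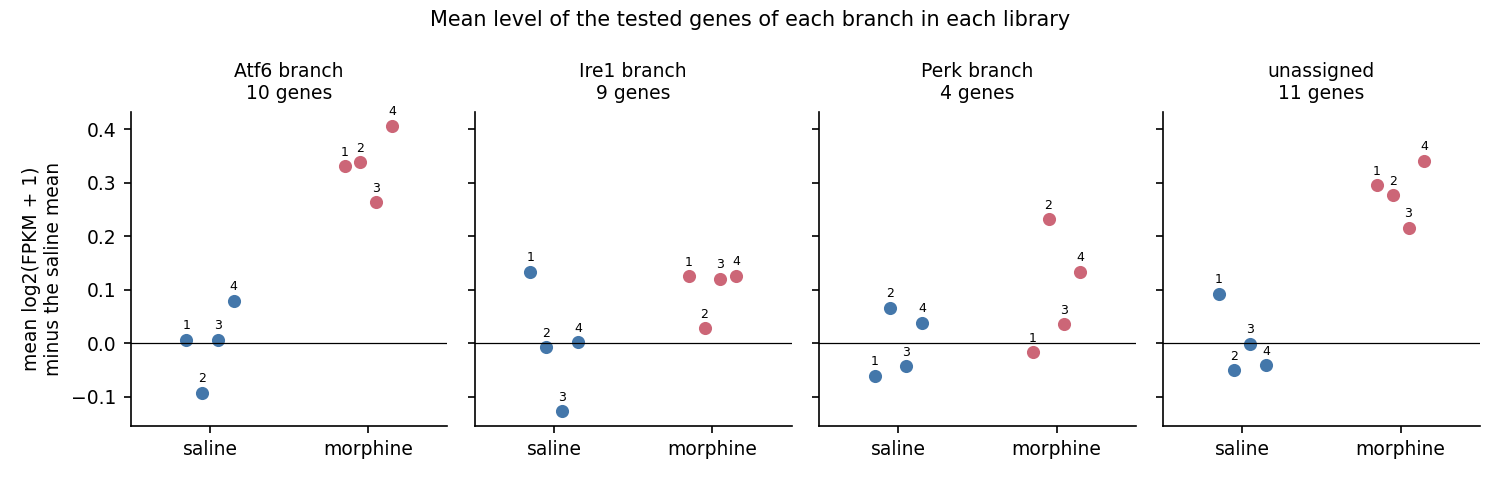
Mean log2(FPKM + 1) of the tested genes of each branch in each library, as the difference from the mean of the 4 saline libraries (blue saline, red morphine, numbered by replicate). As scaled by the authors, saline and morphine libraries are apart for the 10 Atf6 branch genes and the 11 unassigned genes and overlap for the other 2 groups.

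A single textbook readout of each branch was also followed within libraries. The genes were chosen with their changes known, so the values are a description without a test and do not stand for whole branches: the Ire1 branch also holds Xbp1, with a change of 0.66. The log2(FPKM + 1) level of Hspa5 (Atf6 branch) exceeded that of Dnajb9 (Ire1 branch) by 2.11 to 2.35 in saline and by 2.90 to 3.24 in morphine. It exceeded that of Ddit3 (Perk branch) by 1.54 to 1.76 in saline and by 2.27 to 2.52 in morphine. Dnajb9 minus Ddit3 was −0.81 to −0.42 in saline and −0.97 to −0.47 in morphine, so only this pair's ranges overlapped among the 3.

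The sensors were low in level and none changed detectably. Atf6 had 8.13, 9.41, 9.75 and 9.37 FPKM in saline and 9.92, 10.4, 8.68 and 8.58 in morphine, with a change of 0.03 and a 95% confidence interval from −0.23 to 0.29. Ern1 had 1.27, 1.81, 0.67 and 1.6 FPKM in saline and 2.09, 0.98, 1.6 and 1.00 in morphine (interval −0.41 to 0.51). Eif2ak3 had 2.74, 2.38, 2.86 and 2.2 FPKM in saline and 1.72, 4.19, 2.2 and 2.70 in morphine (interval −0.41 to 0.46). Morphine replicate 2 held the highest Eif2ak3 value, and without it the change of Eif2ak3 was −0.15 ± 0.16 SE, against 0.02 ± 0.20 SE with it. All 3 pairs of groups overlapped.

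Xbp1, the target of Ire1 and itself a gene induced by Atf6, was the only called transcription factor of the response. It had 62.1, 53.6, 61.7 and 57.7 FPKM in saline and 79.8, 89.3, 92.5 and 115 in morphine (ENSMUSG00000020484, chromosome 11, 5520659 to 5525893, plus strand). The change was 0.66 ± 0.12 (log2, SE; adjusted p = 0.0301). Morphine replicate 4 was the highest. Xbp1 also missed the threshold without saline replicate 1 (adjusted p = 0.0605), without morphine replicate 2 (0.0572) and without a filter on low values (0.0621). Gene-level FPKM does not separate the spliced from the unspliced mRNA, so the activity of Ire1 was not measured. The Ire1 branch genes other than Xbp1 had changes between −0.21 and 0.21.

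Genes downstream of Perk showed no called change. Atf4 had 38.8, 48.05, 28.3 and 45.4 FPKM in saline and 49.5, 53.1, 46.9 and 42.4 in morphine (change 0.27 ± 0.16 SE; adjusted p = 0.368), and its lowest value was that of saline replicate 3. Without that library the change of Atf4 was 0.12 ± 0.12 SE (adjusted p = 0.645). Atf4 is controlled largely through translation, which these values do not measure. Ddit3, which encodes the factor CHOP, had 32.2, 31.8, 34.2 and 33.25 FPKM in saline and 32.9, 38.3, 30.6 and 37.5 in morphine; its change of 0.08 had a 95% confidence interval from −0.15 to 0.30, below the change of Hspa5. Exons of Ddit3 overlap exons of Mars on the opposite strand, by at most 68 bases for any pair of exons. Mars was listed at 20.25 to 35.5 FPKM. Ppp1r15a, the phosphatase subunit that reverses the Perk signal, had 7.31, 9.73, 9.83 and 9.60 FPKM in saline and 8.94, 7.39, 10.1 and 10.4 in morphine (interval −0.31 to 0.33). Trib3, a pseudokinase gene induced through Atf4 and Ddit3, did not reach the minimum level and was listed at 0.55, 0.31, 4.79 and 0.64 FPKM in saline and at 0.23, 0.22, 0.07 and 0.28 in morphine. All its morphine values lay below the saline values, and saline replicate 3 was far above the other saline libraries; tested without the minimum, its adjusted p was 0.384.

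**Figure D4:**
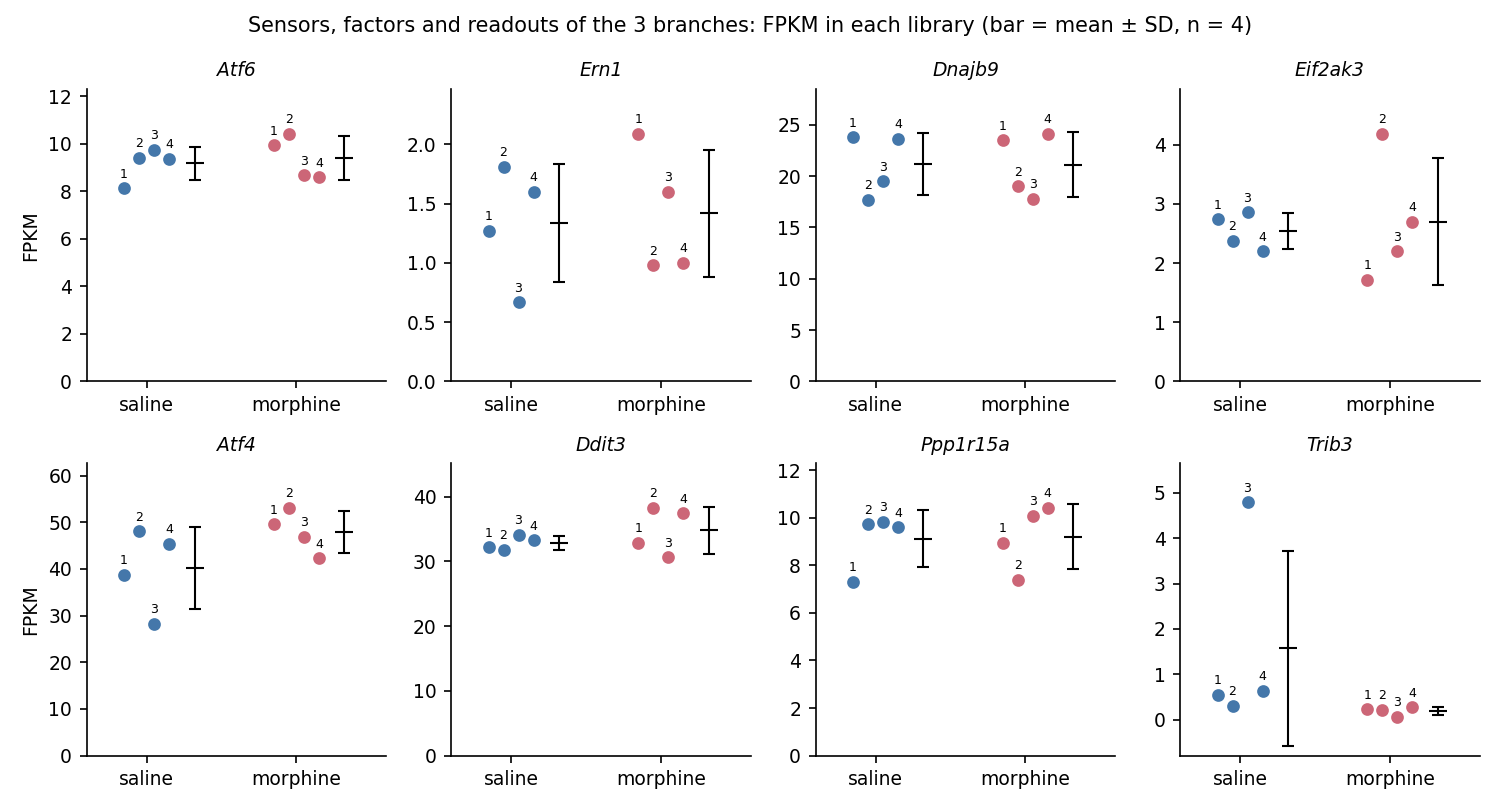
FPKM of sensors, effectors and readouts of the branches in each library (blue saline, red morphine, numbered by replicate; bars are mean ± SD of 4 libraries). Saline and morphine values overlap for each gene shown except Trib3, where saline replicate 3 stands at 4.79 FPKM and the morphine libraries at 0.07 to 0.28.

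Other genes of the same pathways, from lists outside the 36, were mostly not called. Beside the counts below, 1256 of all 12536 genes tested were higher and 1270 lower at an unadjusted p under 0.05. Of 27 tested Atf4 targets such as enzymes of amino acid supply and tRNA charging, none passed in either direction (3 higher and 3 lower at an unadjusted p under 0.05), and the median change was 0.04. Of 40 tested further folding and disulfide genes 1 rose: P4ha1, a collagen prolyl hydroxylase subunit whose partner subunit is P4hb, had 14.9 to 17.0 FPKM in saline and 20.9 to 22.9 in morphine (change 0.44 ± 0.10 SE; adjusted p = 0.0471). That call was lost in each of the 8 fits that left out a library. None of 25 tested further degradation genes passed (4 higher and 0 lower at an unadjusted p under 0.05), none of 31 genes of translocation, signal cleavage and N-glycosylation (1 and 0), none of 26 genes of transport from ER to Golgi (1 and 0) and none of 20 further regulators of the response (2 and 1). The medians of these 4 lists lay between 0.04 and 0.11. Of 6 mRNAs known to be cut by Ire1, 1 fell: Scara3, a scavenger receptor gene, from 12.1 to 14.2 FPKM in saline to 5.27 to 7.82 in morphine (change −0.86 ± 0.14 SE; adjusted p = 0.0237), a call lost without saline replicate 1 (adjusted p = 0.059), saline replicate 2 (0.0864), morphine replicate 3 (0.0819) or morphine replicate 4 (0.0722). The median change of these 6 genes was −0.32, 5 of the 6 changes were negative, and 2 genes were lower at an unadjusted p under 0.05 (0 higher). The second was Sparc, a secreted matrix protein gene, whose saline mean was 139.4 ± 12.2 FPKM (SD, n = 4) and morphine mean 113.2 ± 4.74 (SD, n = 4), without overlap; its limma adjusted p was 0.127. The others were Col6a1 (−0.36), Pdgfrb (−0.35), Bloc1s1 (−0.07) and Hgsnat (0.11), with limma adjusted p-values from 0.266 to 0.819. Pdgfrb also stands in the mural cell list given next, and a part of Ire1 in these changes was not tested.

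Cell type markers differed between the same groups of libraries, and in tissue RNA fewer cells of a type and less RNA per cell cannot be told apart. The median change was −2.23 for striatal and 0.495 for cortical glutamatergic genes. Whether the dissected tissue matched between the libraries was not tested. Summed FPKM of 20 striatal projection neuron genes was 6553.3 in saline replicate 3, 1408.7 to 1694.2 in the other saline libraries and 530.4 to 663.0 in morphine (11 of 20 tested lower, 0 higher). Endothelial genes summed to 303.5 to 323.7 and 218.6 to 247.4 (4 of 15 lower), astrocyte genes to 3458.4 to 4519.1 and 2373.9 to 2920.9 (3 of 16 lower), and mural cell and fibroblast genes to 164.2 to 290.2 and 79.1 to 118.6 (2 of 11 lower). At an unadjusted p under 0.05, 17 striatal, 12 endothelial, 12 astrocyte and 7 mural genes were lower and 0 higher. Cortical glutamatergic genes summed to 182.6 in saline replicate 3, 491.1 to 567.9 in the other saline libraries and 564.5 to 682.9 in morphine (1 of 13 higher). At an unadjusted p under 0.05, 4 of these were higher and 0 lower. Oligodendrocyte genes (3287.6 to 3740.6 and 2062.2 to 3283.5; 0 of 13 called, 7 lower at an unadjusted p under 0.05) and microglial genes (593.8 to 836.8 and 631.7 to 678.9; 0 of 12 called and 0 at an unadjusted p under 0.05) had no called member, and choroid plexus and ependymal genes summed to 13.3 to 65.9 and 7.3 to 23.2 (1 of 5 lower). No marker was at 0 in every library; Folr1, Tmem212 and Ccdc153 of the last list were at 0 in at least 1.

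The called ER genes were set beside these differences. In saline replicate 3, the library with the highest striatal sum, Hspa5 (101 FPKM), Pdia6 (60.7) and Xbp1 (61.7) lay within the range of the other saline libraries, and Sdf2l1 and Manf lay below it. Without that library all 5 genes were still called, with changes between 0.66 and 0.91. When the fit held the mean striatal level as a covariate, the 5 changes lay between 0.54 (Manf) and 0.87 (Sdf2l1) with SEs of 0.16 to 0.22, and 0 of the 34 genes were called (7 at an unadjusted p under 0.05; 3 of all genes called). With the mean endothelial level in its place the changes were 0.62 ± 0.31 for Hspa5, 0.78 ± 0.37 for Sdf2l1, 0.59 ± 0.27 for Pdia6, 0.35 ± 0.28 for Manf and 0.24 ± 0.34 for Xbp1 (log2, SE), and 0 of the 34 genes passed (0 at an unadjusted p under 0.05; 0 of all genes called). Treatment and these sums vary together, so their parts cannot be told apart in this design.

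**Figure D5:**
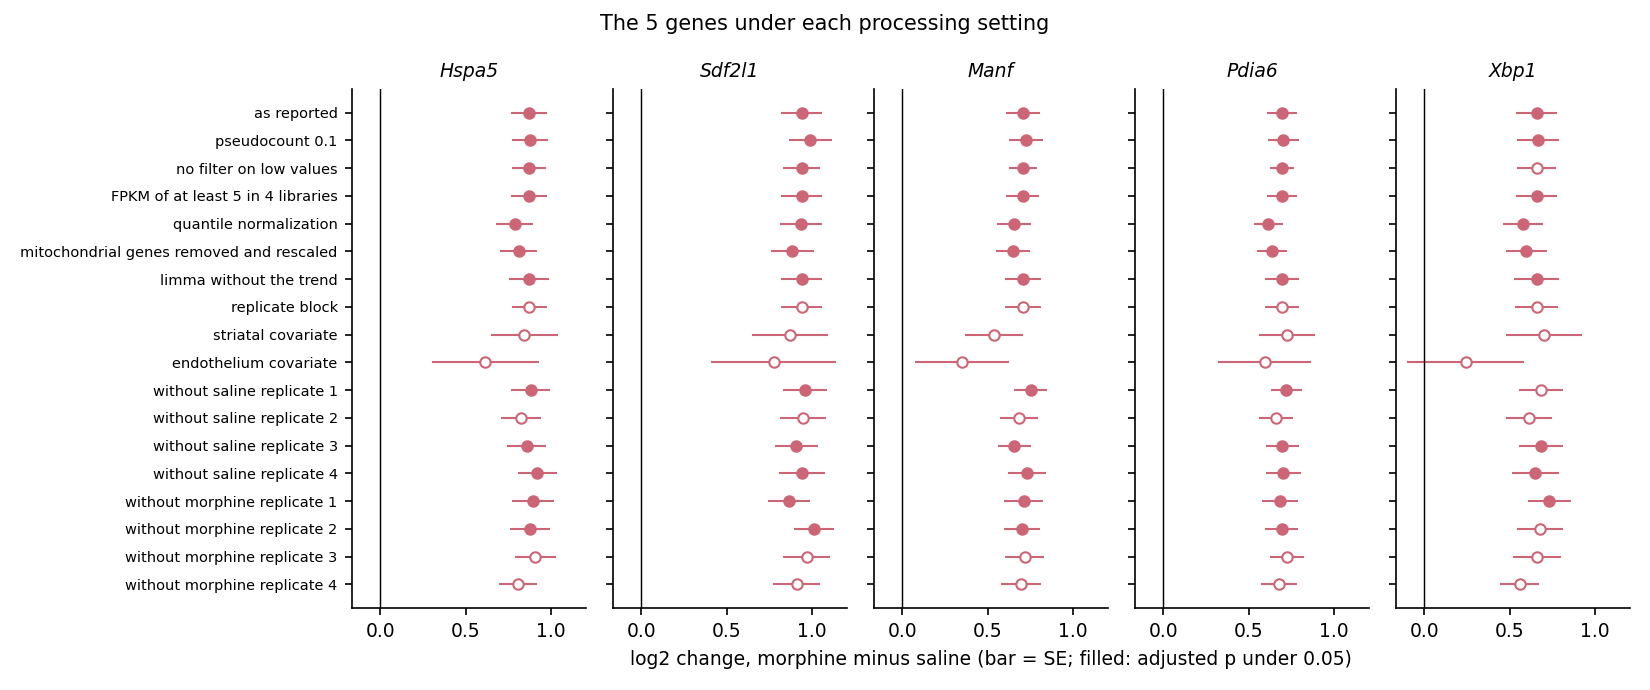
Change of the 5 called genes (horizontal axes, log2, morphine minus saline; bars are SE) as reported and under each of 17 other settings; filled points have an adjusted p under 0.05. The changes stay above 0 in each setting shown, from 0.24 for Xbp1 with the endothelial covariate to 1.01 for Sdf2l1 without morphine replicate 2.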

How the data were processed

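The authors deposited 1 table of FPKM for the 8 libraries, rounded to 2 decimals, with 1 column per library per the file headers. Per the labels' protocols, full-length cDNA of Trizol-extracted RNA was made by oligo-dT priming and template switching, then PCR-amplified and run on a NovaSeq; no molecular identifiers are named. The submitters' processing notes name build mm10 and the tools RSEM, HISAT2, StringTie 1.3.1, Bowtie2 2.2.8 and fastp 0.18.0. Not given in the sources used here are tool order, annotation and strand setting. Symbols and coordinates (1-based) came from GENCODE M21 (GRCm38), which matched 22232 of 22337 identifiers. Because FPKM is relative, a class that takes less of a library raises all other genes.

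Values were taken as log2(FPKM + 1) and fitted with limma 3.58.1 in R 4.3.3 (eBayes with trend, no block, two-sided; Benjamini-Hochberg threshold 0.05) over the 12536 genes that reached 1 FPKM in 4 or more libraries. The fit was also run on simulated data as a self-test. The outcome of that run is not given here and is no evidence for the calls. FPKM gives no counts, so no count model and no counting interval was used. In each pair of libraries 0.546 to 1.216% of genes above 0 in either had identical values, so none was a copy.

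The genes and lists, including those for striatal, cortical, astrocyte, oligodendrocyte, endothelial, mural, microglial and choroid plexus cells, were chosen with earlier results of these data known. All 36 genes are named; of each other pathway list up to 4 called genes are named. Promoter windows are RefSeq's (GRCm38.p6). Alternatives changed the pseudocount (0.1), the minimum level (none, or 5), the scaling (quantile, or without mitochondrial genes), the variance model, a replicate block, covariates for striatal or endothelial genes, and left out each library.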

Additional observations from a re-analysis of the deposited data

Results flagged for a closer look

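In 4 of the 72 groups of 4 libraries checked (36 genes, 2 treatments), 1 library stood far from the others on the log2 scale; chance gives about 1 in 20 groups. Trib3 was at 4.79 FPKM in saline replicate 3 and at 0.31 to 0.64 in the other saline libraries. Sec61a1 was at 36.2 FPKM in the same library and at 32.03 to 32.5 in the others. Ppp1r15a was at 7.31 FPKM in saline replicate 1 and at 9.60 to 9.83 in the others, and Ero1lb was at 4.22 FPKM in that library and at 3.49 to 3.58 in the others. None of these genes was called.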

How the results depend on the processing

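Of the 85 values of the 5 called genes under 17 other settings, 52 kept direction and call, 33 kept direction only and 0 changed sign. Without a minimum level 8 genes were called higher and 9 lower, over more genes tested; with a minimum of 5 FPKM 111 were lower; without mitochondrial genes 74 were higher, and without the trend 84. With the striatal covariate 2 genes were higher, 1 lower and 0 of the ER genes higher, and with the endothelial covariate these counts were 0, 0 and 0. Leaving out a library gave 0 to 183 higher, 0 to 212 lower and 0 to 5 of the ER genes higher. The cause of the differences between left-out libraries was not tested.

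Same-numbered saline and morphine libraries had correlations of −0.205 to 0.052 in their deviations from the group means over 4 pairs. No pairing by number was visible, but 4 pairs are too few to exclude one. A replicate block gave 2 genes higher, 3 lower and 0 of the ER genes higher (10 at an unadjusted p under 0.05), with the same changes.

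Changes that turned sign belonged to genes that were not called. By quantile scaling these were P4hb (−0.033), Canx (−0.006) and Selenos (−0.025). Without mitochondrial genes they were P4hb (−0.025), Atf6 (−0.025), Eif2ak3 (−0.022), Ppp1r15a (−0.046), Derl1 (−0.010) and Selenos (−0.026). With the striatal covariate they were Dnajc3 (−0.045), Ern1 (−0.452), Atf4 (−0.269), Derl2 (−0.208), Selenos (−0.191), Sec61b (−0.029), Sec61a1 (0.007) and Sil1 (0.004). With the endothelial covariate they were Pdia3 (−0.079), Dnajb11 (−0.038), Ern1 (−0.078), Derl2 (−0.386), Selenos (−0.413), Ero1lb (−0.440), Sec61b (−0.886) and Sec61a1 (0.057). Over the fits without 1 library, the changes ranged from −0.019 to 0.070 for Atf6, −0.005 to 0.109 for Derl1, −0.082 to 0.070 for Dnajb9, −0.152 to 0.159 for Eif2ak3, −0.103 to 0.148 for Ern1, −0.037 to 0.100 for P4hb, −0.081 to 0.101 for Ppp1r15a and −0.033 to 0.120 for Selenos. Over the 17 settings the branch medians ranged from 0.171 to 0.282 (Atf6), −0.078 to 0.137 (Ire1) and −0.003 to 0.130 (Perk), and 9 to 14 of the ER genes had groups that did not overlap. Depth is unknown, so it could not be set against the low genes Ern1, Eif2ak3, Edem1, Trib3 and Derl3.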
